A study of Mus musculus with 2 samples.

Results

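The genes of the cytosolic ribosomal proteins were followed across the CD45+ cells of the brains of twi mice and their WT littermates. Members were the rows of the gene table named as proteins of the small (Rps) or large (Rpl) ribosomal subunit, together with Rplp0, Rplp1, Rplp2 and Rpsa, that held at least 100 UMIs over both libraries. Of 81 rows with such a name, 78 were members, 31 of the small and 47 of the large subunit, among 27998 genes listed and 15447 with a UMI. The rows left out were Rpl10l with 0 UMIs, Rpl39l with 17 and Rpl3l with 32, and the member with the fewest, Rps27l, had 1286. The 16 rows of ribosomal protein pseudogenes, marked -ps, were not members, and neither were rows whose symbols have another form, such as Fau, Gnb2l1, Rps3a1, Rps27rt, Rpl22l1, Rpl36al and Rpl7l1.

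Both genotypes were C57Bl/6 mice of postnatal day 21 without treatment, galc+/+ for WT and galc-/- for twi. Twi mice lack the lysosomal enzyme galactosylceramidase in all their cells and are a model of globoid cell leukodystrophy. According to the study's methods, hemibrains without meninges were dissociated, cells were sorted for CD45, and those of a few animals were pooled for each genotype. Each pool gave 1 droplet library (10x Genomics, 3′ v2 chemistry), in which a unique molecular identifier (UMI) marks each captured transcript. With 1 library per genotype there was no replicate error and no test was made. All intervals are exact 95% intervals that cover counting error only, and the genotype, the pooled animals and the library cannot be told apart.

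A ribosome is built from ribosomal RNA and a fixed set of ribosomal proteins, most of them needed in equal amounts. The transcripts of these proteins are among the most abundant of any growing cell. Their mRNAs typically begin with a C followed by a run of C and T bases, the 5′ terminal oligopyrimidine (TOP) motif, through which mTORC1 signalling and LARP1 control their translation. Naive T cells hold a large store of these mRNAs before activation, and mature neutrophils make comparatively little protein.

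The start sites of some members on which the results turn are shown first, because the TOP motif is defined at the start of the transcript. Each window runs from 15 bases before to 15 bases from the RefSeq transcription start (GRCm38.p6), 5′ to 3′ on the gene's strand, so that the sixteenth base is the annotated start, and capitals mark the longest run of C and T in the window.
Rps27: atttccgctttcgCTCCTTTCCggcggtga
Rps27l: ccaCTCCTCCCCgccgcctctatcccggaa
Rps9: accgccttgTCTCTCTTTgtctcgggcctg
Rpl37: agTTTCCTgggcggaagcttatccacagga
Rpl12: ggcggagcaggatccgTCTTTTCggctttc
Rpl36a: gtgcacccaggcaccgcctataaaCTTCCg
Rplp0: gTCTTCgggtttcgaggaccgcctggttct
Rps27 (chr3:90213634-90213663, minus strand) is the most abundant member and Rps27l (chr9:66946071-66946100, plus strand) the least abundant. Rps9 (chr7:3704026-3704055), Rpl37 (chr15:5116598-5116627), Rpl12 (chr2:32961697-32961726) and Rpl36a (chrX:134585639-134585668), on the plus strand, marked the neutrophils, and Rplp0 (chr5:115559452-115559481, plus strand) had the lowest ratio in effector CD8+ T cells. Of these, Rps27 alone had a C at the annotated start followed by C and T only, for 7 bases in all. Over the 57 members with a RefSeq start, 12 (21.1%, 95% interval 11.4 to 33.9%) began with a C followed by at least 4 bases that were each C or T, against 2.49% of all 27025 promoters. A run of at least 7 C or T bases on the gene's strand lay in the window of 29 members (50.9%) and of 18.5% of all promoters. The remaining members were not matched, and an annotated start need not be the start used in these cells.

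After removal of barcodes with more than 15% mitochondrial UMIs, 1271 WT and 1207 twi barcodes were kept, with 3741477 and 4791200 UMIs, and no barcode sequence was shared by the libraries. Ptprc, which encodes CD45, was at 441 CPM in WT and 575 in twi, where CPM is a gene's UMIs scaled to a common total per library or class. Galc had 4 UMIs in WT and 8 in twi, too few to check the genotype, and counts of transcript ends cannot show a point mutation. Barcodes were assigned to 8 classes from UMIs of marker genes, which placed 987 WT barcodes (77.7%) and 797 twi barcodes (66.0%). Doublets were not called, and 1 twi barcode that met 2 gates was left out of the classes.

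Over both libraries Rps27, a small subunit protein with a zinc finger, had 8936 CPM, the highest of the 78, followed by Rps29 with 7266, Rpl41 with 6189 and Rpl13a with 6026. The lowest were Rps27l with 150.5, Rpl6l with 563, Rpl22 with 994, Rpl5 with 1051 and Rpl7a with 1104. These are levels of counted 3′ ends, which are not divided by transcript length. Apart from Rps27l and Rpl6l the highest and lowest member differed 8.99-fold, and the 5 highest gave 14.2% of all ribosomal protein UMIs, so no small group of members made up the family total. Small subunit members gave 44.5% of the ribosomal protein UMIs in WT and 43.9% in twi.

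For 16 of 77 members searched, the last 300 bases of the transcript matched another row of the gene table over at least 90 bases at 97% identity or more, so that reads from either could be lost or assigned to the other. The largest such row was Rps27rt, identical to Rps27 over 300 bases, with 17929 UMIs. Among the members named below this held for Rps2, Rps12, Rps26, Rps27, Rps28, Rpl7a, Rpl9, Rpl10, Rpl27, Rpl36, Rpl41 and Rplp1, whose own levels are therefore uncertain. Rps9, Rps27a, Rps27l, Rps29, Rpl12, Rpl22, Rpl36a, Rpl37 and Rplp0 had no such match.

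The share of UMIs that came from the family separated the cell classes (see the plot of shares by class). Naive CD8+ T cells had the highest share, 38.5% in WT (95% interval 38.3 to 38.7%, 55 barcodes) and 38.2% in twi (38.0 to 38.4%, 65 barcodes). Effector CD8+ T cells had 34.0% in WT (36 barcodes) and 32.5% in twi (361 barcodes). CD4+ T cells had 32.5% in WT (47 barcodes) and 30.7% in twi (72 barcodes).

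The T cells were thus the top of the order in both libraries. NK cells stood lower, with 20.4% in WT (65 barcodes) and 25.4% in twi (60 barcodes). Non-cycling B cells had 19.3% in WT (517 barcodes) and 20.7% in twi (138 barcodes), and monocytes had 19.6% (34 barcodes) and 19.1% (39 barcodes). These 3 classes lay close together in WT, and their per-barcode ranges overlapped widely, from 5.09 to 32.4% in NK cells and from 3.11 to 35.2% in B cells of WT.

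Neutrophils had the lowest share, with 2.90% in WT (198 barcodes) and 3.78% in twi (50 barcodes). Single WT neutrophil barcodes ran from 0.706 to 7.36%, which overlapped the lowest non-cycling B cell (3.11%) and NK (5.09%) barcodes of WT but no barcode of the other 5 classes. In twi they ran from 2.02 to 16.5%, and only the naive CD8+ T cell barcodes, from 21.4% up, lay clear of that range.

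**Figure D1:**
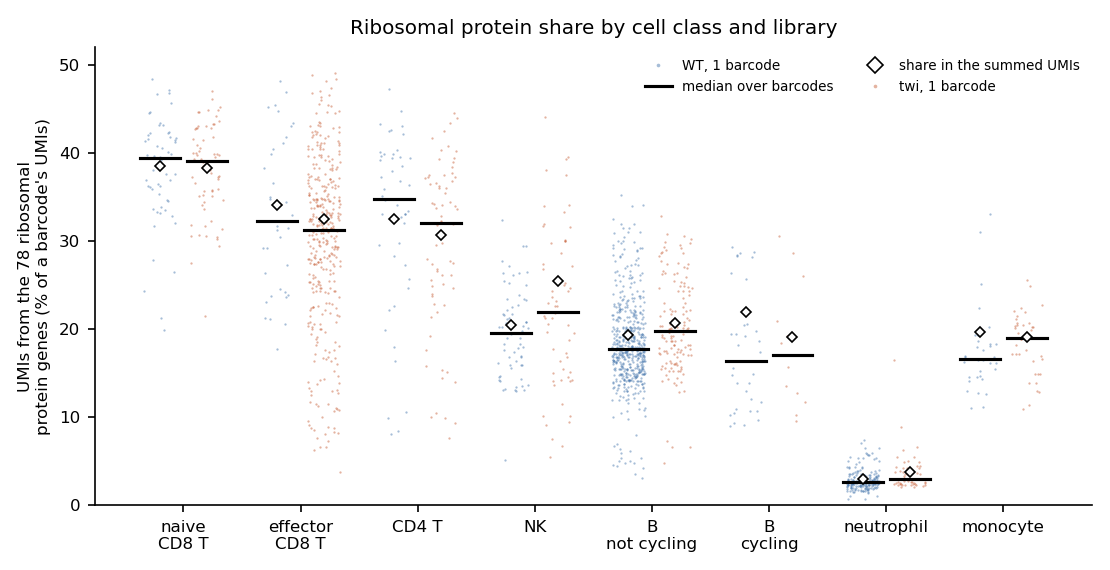
Share of each barcode's UMIs that came from the 78 ribosomal protein genes (y axis, percent), by cell class and library; each point is 1 barcode, the bar is the median over barcodes and the diamond the share in the summed UMIs. Naive CD8+ T cells lie highest (38.5% in WT and 38.2% in twi) and neutrophils lowest (2.90 and 3.78%).

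Within several classes the share moved with the depth of the barcode. Spearman's rho between a barcode's share and its UMIs was 0.594 over the 361 effector CD8+ T cell barcodes and 0.747 over the 60 NK barcodes of twi, 0.0878 over the 65 naive CD8+ T cell barcodes of twi, and −0.0662 over the 198 neutrophil barcodes of WT. In the other library rho was 0.522 over the 36 effector CD8+ T cell and 0.352 over the 65 NK barcodes of WT. It was 0.301 over the 55 naive CD8+ T cell barcodes of WT and −0.335 over the 50 neutrophil barcodes of twi. Each point takes its share and its depth from the same UMIs.

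Over all barcodes the family gave 19.9% of the WT UMIs against 27.3% of those of twi, which is 1.37 times the share (95% interval 1.37 to 1.38). In this comparison 58 of the 78 members were higher in twi by at least 1.3-fold and 0 were lower, with a median ratio of 1.38, where 16.3% of all 7194 genes with at least 100 UMIs were higher by that fold and 18.9% lower, with a median of 0.990. All 78 ratios were above 1, although Rps27l and Rpl6l were at 0.810 and 0.980 in barcodes with a Y-linked transcript and no Xist. Rpsa, a small subunit protein also known as the laminin receptor, was the highest at 1.61 (1.56 to 1.66), with 1887 CPM in WT and 3037 in twi. Rpl13a, which has a second role outside the ribosome in translational control by interferon γ, had 4494 and 7223 CPM, a ratio of 1.61 (1.58 to 1.64).

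Rplp1, a protein of the stalk that recruits elongation factors, had 2532 and 4023 CPM, a ratio of 1.59. Rpl38 had a ratio of 1.57. At the other end stood Rps27l with 148.3 and 152.2 CPM, a ratio of 1.03 (0.917 to 1.15), and Rpl6l with 1.07. Members of the small subunit had a median ratio of 1.35 and those of the large subunit of 1.396. With a fold of 1.5 the count of 58 became 8 (8.83% of all genes). In barcodes with a transcript of a Y-linked gene and no Xist it became 6 of 78, with 0 lower and a median ratio of 1.17, where 13.2% of 3561 genes were higher and 18.3% lower. Barcodes of that kind were 18 of 36 in WT and 41 of 361 in twi effector CD8+ T cells. In non-cycling B cells they were 190 of 517 and 30 of 138, and in the other classes their part was also smaller in twi. The numbers of males and females in each pool are not given in the labels, and the part of sex in the difference was not tested.

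The difference between the libraries followed the mix of cells. Effector CD8+ T cells gave 4.40% of WT UMIs and 35.7% of twi UMIs, neutrophils 14.9% and 2.87%, and non-cycling B cells 28.4% and 6.44%. When the WT share of each class was weighted by the twi mix, the family came to 26.7%, which is 91.1% of the difference of 7.45 points. When the twi share of each class was weighted by the WT mix it came to 20.9%, or 13.7% of the difference. This is arithmetic on the classes used here, with the barcodes of no class counted as a class of their own. Those barcodes held 23.3% of WT UMIs and 34.6% of twi UMIs, with a family share of 21.7% and 24.7%, and the mix of cells among them is not known.

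In most classes the members differed less between genotypes, and not in 1 direction (see the plot of member ratios). The family's share was higher in twi in 3 of 8 classes, with ratios of 1.25 (95% interval 1.23 to 1.26) in NK cells, 1.31 (1.27 to 1.35) in neutrophils and 1.07 (1.06 to 1.08) in non-cycling B cells. It was lower in 5, with 0.956 in effector CD8+ T cells, 0.946 in CD4+ T cells, 0.974 in monocytes and 0.872 in cycling B cells. In naive CD8+ T cells, the remaining class, it was 0.992, with an interval that held 1 (0.983 to 1.002). As medians over barcodes it was higher in 5 of 8, since monocytes then had 16.6% in WT and 18.9% in twi, and cycling B cells 16.4 and 17.0%. When CD4+ T cells were divided by naive and effector markers, the share in summed UMIs was higher in twi in both groups (given below). As medians over barcodes it was not. With more naive than effector UMIs the median was 36.13% in WT and 36.10% in twi, and in the others 28.3 and 25.8%.

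**Figure D2:**
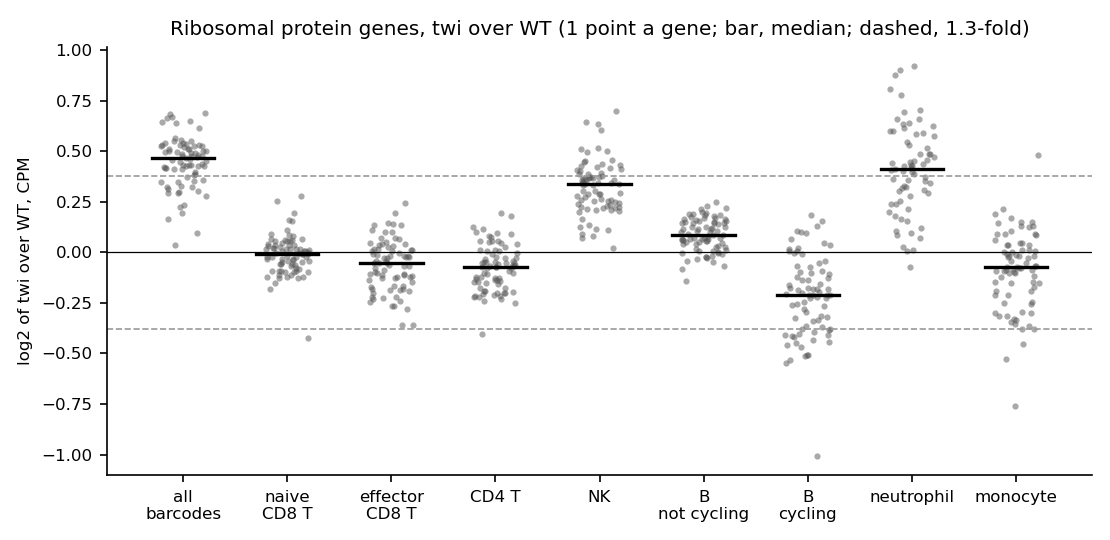
Ratio of CPM in twi over WT for each ribosomal protein gene with at least 100 UMIs (y axis, log2), in all barcodes and in each cell class; each point is 1 gene, the bar is the median and dashed lines mark 1.3-fold. All points lie above 0 in all barcodes and in NK cells, while those of naive and effector CD8+ T cells lie around it.

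In effector CD8+ T cells 0 of the 78 members passed the 1.3-fold mark in either direction (24.3% of all 2323 genes were higher and 15.2% lower by that fold), with a median of 0.963. Rplp0, the base of the ribosomal stalk, had 7194 CPM in WT against 5612 in the twi library, a ratio of 0.780 (0.734 to 0.829). Rps28 had a ratio of 0.824, Rps25 of 0.831 and Rpl41 of 0.833. The highest were Rpl27 at 1.18, Rpl22 at 1.14, Rpl13a at 1.10, Rpl36 at 1.10 and Rpl37 at 1.10. The 361 twi barcodes were set here against 36 of WT.

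In non-cycling B cells, again, 0 of 78 passed the mark (8.42% of 2185 genes were higher and 12.9% lower), with a median of 1.06. Rps24 had the highest ratio, 1.19 (1.11 to 1.27), followed by Rps27 at 1.17, Rps15 and Rpl19 at 1.16 and Rpl9 at 1.15. The lowest were Rps27l at 0.907 (0.559 to 1.42), Rps6 at 0.944, Rpl28 at 0.954, Rpl15 at 0.968 and Rps20 at 0.971. Most B cells of both libraries, 88.0% in WT and 78.3% in twi, had a UMI of an immature B cell marker. Among B cells without one the family's share was 24.0% in WT and 22.9% in twi, so that the order of the genotypes turned in summed UMIs (ratio 0.956). As medians over barcodes it did not turn, with 22.6% in WT (62 barcodes) and 24.1% in twi (30 barcodes).

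In naive CD8+ T cells 1 of 77 members was lower by 1.3-fold and 0 were higher (8.87% and 7.42% of 485 genes). This was Rpl6l, with 943 CPM in WT against 704 in the twi library, a ratio of 0.747 (0.603 to 0.924). Rpl6l was also the member that was lower in CD4+ T cells, at 0.757 (0.593 to 0.968), where 0 were higher (12.2% and 14.7% of 483 genes). In monocytes 4 of 78 were lower and 1 higher (17.2% and 17.3% of 641 genes). Rpl36a, a large subunit protein encoded on the X chromosome, had 1582 CPM in WT monocytes against 935 in the twi library, a ratio of 0.591 (0.494 to 0.706). Among the other lower members were Rps27l at 0.694 and Rps20 at 0.769, and Rps2 lay just outside the mark at 0.7698. Rps27, the higher member, had 4256 and 5948 CPM, a ratio of 1.398 (1.28 to 1.52). Of the 34 WT monocyte barcodes, 8 had at least 2 UMIs of cell cycle genes and held 116762 of the 226270 UMIs. In twi 2 of 39 did, with 29250 of 205268 UMIs, and the part of these barcodes in the ratios was not tested. In cycling B cells 19 of 78 were lower and 0 higher (22.3% and 18% of 651 genes), with 12 barcodes in twi and 35 in WT, 5 of them with monocyte markers.

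In NK cells the members were higher in twi: 23 of 77 passed the 1.3-fold mark and 0 were lower by it, where 12.3% of 546 genes were higher and 17.9% lower. The median was 1.26, against 0.986 over all genes tested. Rpl36a had 1179 CPM in WT against 1911 in the twi library, a ratio of 1.62 (1.37 to 1.92), Rps19 2679 and 4185, a ratio of 1.56 (1.40 to 1.75), and Rps20 a ratio of 1.55 (1.33 to 1.82). Rpl10a was the lowest member at 1.01 (0.870 to 1.18). These genes were named after their values were seen.

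The difference lay in a part of the NK barcodes. Their median share was 19.5% in WT and 21.9% in twi, the upper quartile 22.7 and 28.9% and the highest barcode 32.4 and 44.1%. The lower quartile went the other way, with 15.9% in WT and 15.1% in twi. With every barcode thinned to 1000 UMIs the ratio was 1.05. Gzma, a granzyme of mature NK cells, had no UMI in 2 WT and 13 twi NK barcodes, and among barcodes with a Gzma UMI the share was 20.6% in WT (63 barcodes) and 24.7% in twi (47 barcodes). In the 13 twi barcodes without one it was 27.9%.

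In neutrophils 39 of 68 members were higher in twi by at least 1.3-fold and 0 were lower (27.8% and 11% of 647 genes), with a median of 1.33 against 1.12 over all genes tested. As medians over barcodes the family's share was 2.59% in WT and 2.95% in twi. Over the alternatives of processing the ratio of shares lay between 1.14 and 1.43. The difference lay in barcodes with few transcripts of the secondary granule genes Ltf, Ngp and Camp, which are made in immature neutrophils. With at least 10 UMIs of these, the family's share was 2.84% in WT (121 barcodes) and 2.86% in twi (18 barcodes). With fewer, it was 3.15% in WT (77 barcodes) and 5.06% (4.89 to 5.25%) in twi (32 barcodes), with a highest barcode of 16.5%. The mark of 10 UMIs also divided the barcodes by depth. Median UMIs per barcode were 3278 above and 1202 below it in WT, and 3638.5 and 1645.5 in twi. Monocyte markers were at 0.143 UMIs per barcode in the WT and 0.719 in the twi barcodes of that second kind, and their part in the difference was not tested.

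Effector CD8+ T cells had a lower share of ribosomal protein UMIs than naive CD8+ T cells in both libraries. The ratio was 0.851 (95% interval 0.845 to 0.856) in twi and 0.883 (0.873 to 0.893) in WT, and as medians over barcodes it was 0.8003 and 0.819. These classes were set on naive and effector markers, whose levels are therefore a description. Naive markers were at 10.1 and 1.45 UMIs per barcode in naive and effector cells of twi and at 9.76 and 3.69 in those of WT. Effector markers were at 3.97 and 47.2 in twi and at 3.18 and 41.7 in WT. Median UMIs per barcode were 3669 in naive and 4140 in effector cells of twi, and the median number of ribosomal protein UMIs was 1414 and 1360. The median number of other UMIs was 2234 and 2775.

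By member, 12 of 78 were lower by at least 1.3-fold in twi effector cells and 1 was higher, where 13.4% of 2415 genes were lower and 32.3% higher. The median was 0.859, against 1.11 over all genes tested. Rplp0 had 8621 CPM in naive and 5612 in effector cells, a ratio of 0.651 (0.621 to 0.683), the lowest of all. Rps29 had 13434 and 8959, a ratio of 0.667 (0.642 to 0.693). Rps28 followed at 0.692, Rpl35a at 0.701 and Rpl8 at 0.703. Rps26, Rps4x, Rps27, Rpl31, Rps16 and Rps7 were among the others, and Rps19 lay just outside at 0.777. The count of 13 became 2 at 1.5-fold, 1 in each direction (21.1% of all genes higher and 6.75% lower), and 42 of 77, all lower, with each barcode thinned to 1000 UMIs (21.6% of 348 genes, the members among them, were lower). It was 37 of 77, all lower, in barcodes with a Y-linked transcript and no Xist (22.7% of 278 genes). With CPM taken over the UMIs of other genes it was 35, of which 34 were lower and 1 higher (20.2% and 25% of 2415 genes).

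The single member above the mark was Rps27l, a p53 target gene whose product resembles Rps27, with 22 UMIs in naive and 253 in effector cells, a ratio of 1.64 (1.06 to 2.67). In barcodes with a Y-linked transcript and no Xist its ratio was 0.896. Members with ratios above 1 included Rpl38 at 1.17 (1.09 to 1.25), Rpl22 at 1.17 and Rpl7a at 1.14. These members took a larger part of the ribosomal protein UMIs in effector than in naive cells. With thinned barcodes Rpl38 was at 1.02.

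In WT, 2 of 77 members were lower by that fold and 0 higher (11.4% and 17.2% of 402 genes), Rpl35a at 0.732 and Rps27 at 0.748. Rpl38 at 1.13 and Rpl7a at 1.21 were again above 1, while Rplp0 was at 0.839 and Rpl22 at 0.899. Over 77 members the log2 ratios of the libraries had a Pearson's r of 0.621 and a Spearman's rho of 0.506, as a description over genes, which share each class's total. Ratios were below 1 in both libraries for 62 members and above 1 in both for 6.

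**Figure D3:**
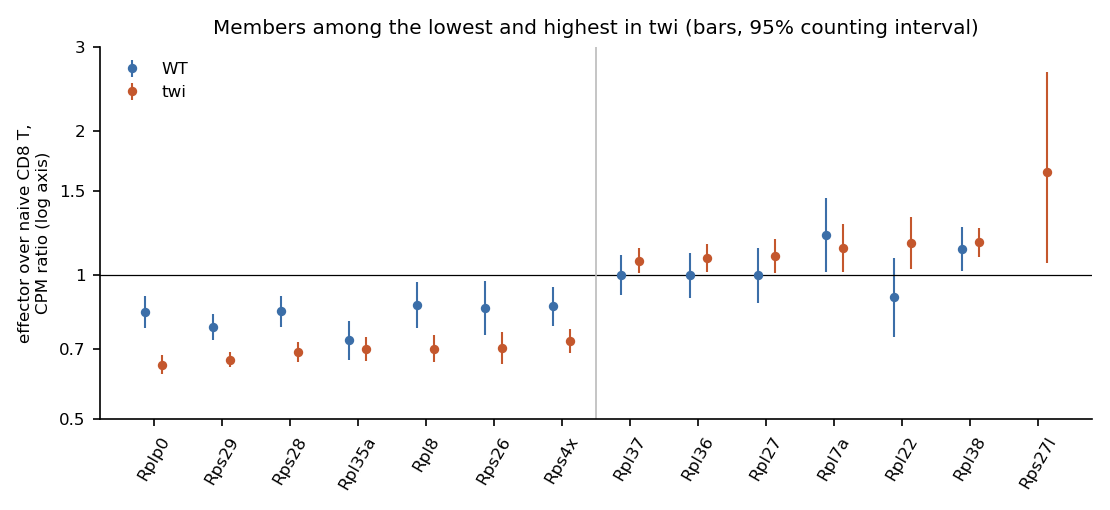
Ratio of CPM in effector over naive CD8+ T cells (y axis, log scale) for members chosen among the lowest and the highest in twi, by library; points are ratios and bars their exact 95% counting intervals. Rplp0 has the lowest ratio in twi (0.651) and Rps27l the highest (1.64); Rps27l is not drawn for WT, where it had fewer than 100 UMIs.

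Cycling T cells held a smaller share. Effector CD8+ T cells of twi with at least 2 UMIs of cell cycle genes had 29.2% (42 barcodes), against 33.3% in the 319 others, and without them the ratio to naive cells was 0.871. In WT 2 such barcodes had 26.6% and the other 34 had 36.0%. CD4+ T cells that cycled had 20.9% in WT (6 barcodes) and 26.5% in twi (6 barcodes), against 34.7 and 31.8% in the others. The CD4+ T cells also divided by marker: those with more naive than effector UMIs had 33.3% in WT (40 barcodes) and 34.5% in twi (38 barcodes), and the others 24.8% (7 barcodes) and 27.0% (34 barcodes).

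Cycling B cells of WT had a share of 21.9% (35 barcodes), a ratio to non-cycling B cells of 1.14 (1.13 to 1.15), whereas the ratio of medians was 0.924. Of the 35 barcodes, 5 had at least 2 UMIs of monocyte markers, with 39 such UMIs and 3.6 UMIs of B cell markers per barcode. These 5 held 146325 of the 333607 UMIs, and their share was 26.7%. In the other 30 barcodes the share was 18.2%, and the ratio to non-cycling B cells, filtered in the same way, was 0.952. In twi no cycling B barcode had 2 monocyte UMIs, and the ratio was 0.924 (0.906 to 0.942, 12 barcodes).

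With all 35 barcodes 25 of 78 members were higher in cycling than in non-cycling B cells of WT by at least 1.3-fold and 1, Rps27, was lower (32.5% and 34.1% of 2256 genes). In the 30 WT barcodes, set against all 517 non-cycling ones, 8 of 78 members were lower by that fold and 4 higher (33.7% and 31.1% of 2034 genes). Rps27 was the lowest, with 8478 CPM in non-cycling and 4976 in cycling cells, a ratio of 0.587 (0.548 to 0.628). It was also the lowest in twi, with 9926 and 5243 CPM, a ratio of 0.528 (0.470 to 0.592), where 11 of 77 were lower and 7 higher (34.4% and 29.3% of 509 genes). Rps19 was low in both, at 0.740 in WT and 0.702 in twi. Rpsa was high in both, at 1.44 (1.28 to 1.61) and 1.43 (1.16 to 1.74), and Rpl28 had 1.29 and 1.68. Rps27l had 95 UMIs in non-cycling and 52 in the 30 cycling WT barcodes, a ratio of 3.11 (2.17 to 4.40), and the others above the mark there were Rps2 at 1.32 and Rps12 at 1.31. Rps2, Rps12, Rps19, Rpsa and Rpl28 were named in these cells after their values were seen.

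Neutrophils had the smallest family total. All 78 members were lower than in non-cycling B cells by at least 1.3-fold in WT and all 77 measured in twi, where 72.3% of 2220 genes in WT and 63.1% of 580 in twi were lower (17.6% and 26.2% were higher). The median ratio was 0.127 in WT and 0.162 in twi, against 0.381 and 0.407 over all genes tested. S100a8 and S100a9 alone gave 32.3% of neutrophil UMIs in WT and 29.0% in twi. The median neutrophil barcode of WT held 58.5 ribosomal protein UMIs and 2138.5 others, against 346 and 1603 in B cells, so the number of ribosomal protein UMIs was lower as well as their share. B cell markers were at 0.202 UMIs per neutrophil barcode in WT and 24.6 per B cell barcode. Hemoglobin transcripts were at 3.99 UMIs per neutrophil barcode in WT and 3.23 per B cell barcode. The part of free RNA in the ribosomal protein UMIs of neutrophils was not tested.

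Counted per 1000 ribosomal protein UMIs, which removes the family total, Rps27l, Rps27a, Rps9 and Rpl37 had the highest ratios of neutrophils to B cells in WT, at 3.87, 3.72, 2.75 and 2.36 (see the plot of neutrophils against B cells). The ratio of Rps27l rests on 29 UMIs in neutrophils and 95 in B cells. In twi, where Rps27l had fewer than 100 UMIs in all, Rps9 had 3.41, Rps27a 3.26 and Rpl37 2.05. Rps9, a small subunit protein of the mRNA entry region, had 48.9 in neutrophils over both libraries and between 11.6 and 17.1 in the other 7 classes. Rps27a, which is made as a fusion with ubiquitin and so also supplies ubiquitin, had 47.7, against 13.04 in naive CD8+ T cells and 19.4 in monocytes. Rpl37 had 34.5, against 12.6 to 16.8 elsewhere. In CPM, Rps9 had 1365 in WT neutrophils and 2055 in twi, which is lower than in any other class.

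Downward stood Rpl12, a protein of the stalk base, with 1.87 in neutrophils and 4.28 to 7.92 elsewhere. Rpl36a had 2.104, against 6.58 to 9.54 elsewhere. Rpl3 had 3.83, Rpl10a 3.04 and Rpl14 4.21. The order of the members repeated in the other library: over 77 members the log2 ratios of neutrophils to B cells had a Pearson's r of 0.926 and a Spearman's rho of 0.920 between WT and twi, as a description over genes.

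**Figure D4:**
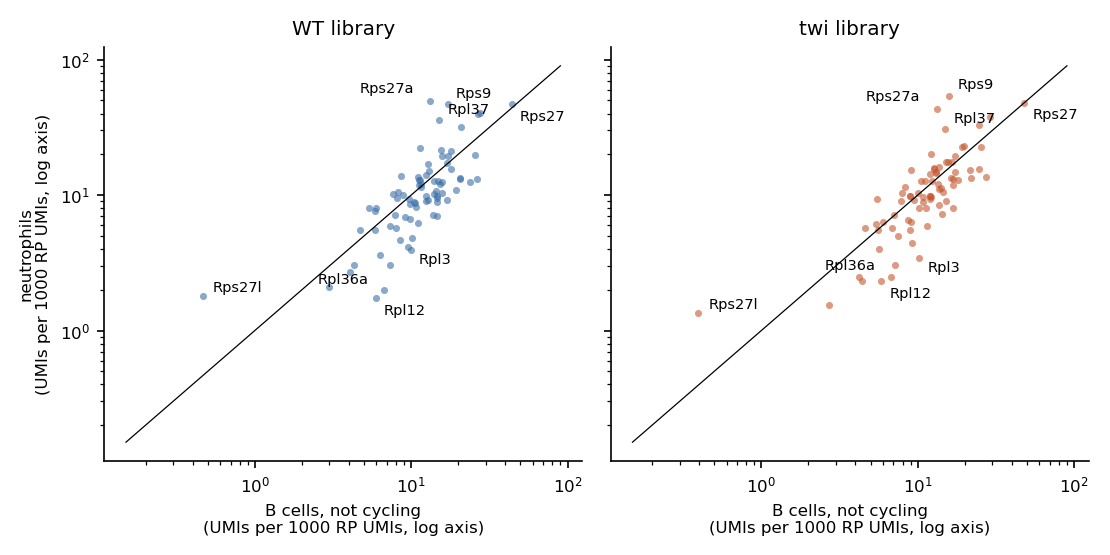
Each ribosomal protein gene's UMIs per 1000 ribosomal protein (RP) UMIs in neutrophils (y axis) against non-cycling B cells (x axis), both on log axes, in the WT (left) and twi (right) library; each point is 1 gene and the line marks equal values. Rps27l, Rps27a, Rps9 and Rpl37 lie above the line and Rpl12, Rpl36a and Rpl3 below it in both libraries.

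Rps27l varied most among the classes, 10.8-fold per 1000 ribosomal protein UMIs, followed by Rpl36a (4.54-fold), Rpl12 (4.23-fold), Rps9 (4.21-fold) and Rps27a (3.85-fold). Cycling B cells, in which Rpl36a was highest, include here the 5 WT barcodes with monocyte markers. Monocytes had the highest value of Rps27l, 2.26 per 1000. Cycling B cells had 2.06, with those 5 barcodes included, and neutrophils 1.68. Naive CD8+ T cells had 0.208 and CD4+ T cells 0.278. Its level in monocytes was 513 CPM (424 to 615) in WT and 356 (279 to 447) in twi. In cycling B cells it was 465 CPM in WT with the 5 barcodes with monocyte markers, 278 in the other 30, and 318 in twi. In non-cycling B cells it was 89.4 and 81.0. The separate intervals of WT and twi overlapped in every class, but the interval of their ratio in monocytes (0.694, 0.510 to 0.938) lay below 1. Cycling barcodes held more of the monocyte UMIs in WT than in twi, and their part in this ratio was not tested.

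Rps27, its abundant partner, was distributed otherwise. Per 1000 ribosomal protein UMIs it had 44.9 in non-cycling B cells but 22.7 in cycling B cells and 26.1 in monocytes, the lowest values among the classes. In CPM Rps27 was highest in naive CD8+ T cells, with 15699 in WT and 15326 in twi, and lowest in neutrophils, with 1361 and 1816. Rps27rt, identical to it at the 3′ end, showed the same low values: 2087 CPM in non-cycling and 995 in cycling B cells of WT.

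**Figure D5:**
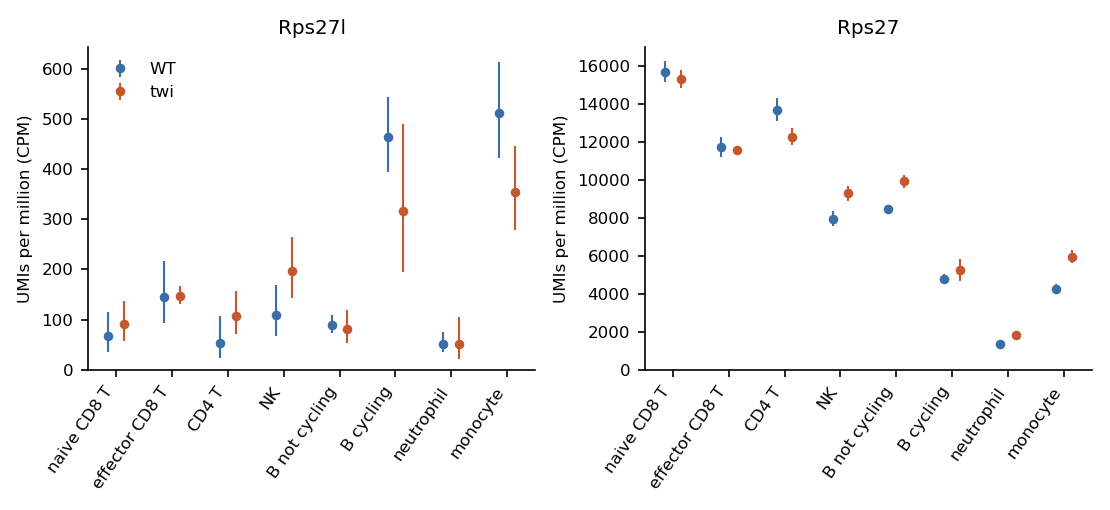
Level of Rps27l (left) and Rps27 (right) in CPM (y axis, from 0) in each cell class of the WT and twi libraries; bars are exact 95% counting intervals. Rps27l is highest in monocytes (513 and 356 CPM) and cycling B cells, and Rps27 in naive CD8+ T cells (15699 and 15326 CPM).

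Among the other paralog pairs, Rpl22, a large subunit protein needed for T cell development, and Rpl22l1, which can replace it, went apart in CD8+ T cells. Rpl22 had 1167 CPM in naive and 1364 in effector cells of twi, a ratio of 1.17 (1.03 to 1.33). Rpl22l1 had 1638 and 1062, a ratio of 0.648 (0.581 to 0.724). Between genotypes in effector cells, Rpl22 had a ratio of 1.14 and Rpl22l1, with 1593 CPM in WT, of 0.666. In WT the intervals of both ratios held 1, with 0.899 (0.743 to 1.09) for Rpl22 and 0.868 (0.737 to 1.02) for Rpl22l1. With each barcode thinned to 1000 UMIs, Rpl22 in twi was at 0.908, below 1. Rpl36al, the autosomal copy of Rpl36a, had a ratio of 1.29 (1.10 to 1.52) from naive to effector cells of twi.

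The 4 members on the X chromosome had ratios of twi over WT of 1.44 for Rpl39, 1.34 for Rpl36a, 1.26 for Rps4x and 1.24 for Rpl10 in all barcodes, with a median of 1.2996 beside 1.38 for the family. The libraries differed in barcodes with a Y-linked transcript and no Xist, and the part of sex in these ratios was not tested. Rpl10 was highest per 1000 in monocytes (19.0) and lowest in CD4+ T cells (8.72). Of the stalk proteins, Rplp0 had 22.4 per 1000 in naive and 17.6 in effector CD8+ T cells over both libraries, while Rplp1 had 16.1 and 15.3 and Rplp2 had 14.4 and 14.7. By library, Rplp0 had 22.3 and 21.2 in WT and 22.6 and 17.3 in twi, which gave most of the effector UMIs.

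Other genes of translation were counted from lists of the pathway. Over all barcodes, 7 of 16 elongation factors and other genes with a TOP motif were higher in twi by at least 1.3-fold and 0 lower, with a median of 1.25, where 16.3% of all 7194 genes were higher and 18.9% lower. Tpt1, a growth-linked TOP gene, had a ratio of 1.53. The highest initiation factor was Eif2s2 at 1.298, and 0 of 15 passed the mark in either direction, with a median of 1.07. Of 22 ribosome biogenesis genes 5 were higher (22.7%, near the 16.3% of all genes) and 1 lower, with a median of 1.14, from Polr1a at 0.732 to Myc at 1.77. Of 73 mitochondrial ribosomal proteins, which build the separate ribosome of mitochondria, 3 were higher and 2 lower, with a median of 1.03. Of 7 genes of translation control by mTORC1 1 was higher, Larp1 at 2.06, and 1 lower, Eif4ebp1 at 0.721. Among the 12 pseudogene rows tested 1 was higher and 0 lower, with a median of 1.17, and among 7 ribosomal proteins under other symbols 4 were higher and 0 lower, with a median of 1.31.

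In effector against naive CD8+ T cells of twi, 4 of 12 ribosome biogenesis genes were higher by at least 1.3-fold and 0 lower, with a median of 1.17 beside 1.11 over all genes tested, where 32.3% of 2415 genes were higher and 13.4% lower, so that their share lay at that of all genes. Myc, a driver of ribosome synthesis, had a ratio of 2.497 (1.23 to 5.90), and Nop58, of the box C/D particles that modify ribosomal RNA, one of 2.27 (1.24 to 4.63). The lowest was Ubtf, a factor of RNA polymerase I, at 0.969. Of 36 mitochondrial ribosomal proteins 18 were higher and 1 lower, with a median of 1.27, and of 15 initiation factors 3 were higher (20%, below the share of all genes) and 1 lower, with a median of 1.14. Of 16 elongation factors and other TOP genes 1 was higher, Eef1d at 1.38, and 1 lower, Eif4a2 at 0.692, with a median of 0.928. In neutrophils against B cells of WT all 16 TOP genes and all 6 biogenesis genes tested were lower, and 11 of 13 initiation factors (84.6%), where 72.3% of 2220 genes were lower and 17.6% higher. Eif1, which selects the start codon, was at 1.03. Fbl, the methyltransferase of the box C/D particles, had a ratio of 0.0200 (0.00241 to 0.0734). Of 23 mitochondrial ribosomal proteins 19 (82.6%) were lower and 1 higher, Mrpl33 at 4.11 (3.41 to 4.97).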

How the data were processed

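Single-cell libraries of pooled CD45+ brain cells (10x Genomics 3′ v2), 1 per genotype, were analysed from the UMI counts that the authors deposited for each gene and barcode, which are not normalized. Per the study's methods reads were aligned with STAR, only those with a high mapping score on annotated transcripts were kept, and barcodes of cells were told from free RNA by an adaptive UMI threshold. The submitters' processing notes name Cell Ranger 2.1.1 and mm10. A filter on mapping score can remove reads of members with near-identical copies.

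Barcodes over 15% mitochondrial UMIs were removed. Classes were set by UMIs of marker genes (Cd3 genes with Cd8a/Cd8b1 or Cd4; naive and effector markers; NK, B, cell cycle and monocyte markers; S100a8 and S100a9 over 2% for neutrophils). UMIs were summed per library and class. Shares have Clopper-Pearson intervals and ratios of CPM exact conditional intervals (scipy 1.17.1, numpy 2.4.6). Only genes with at least 100 UMIs in a comparison were counted, at 1.3-fold. With 1 library per genotype no test was made. Only the ratios and their intervals were tried on simulated data. These were sums modelled on effector and naive CD8+ T cells of twi, with counting error alone. The members and lists were chosen with earlier results of these data known.

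Named genes were the 5 highest and lowest members by level, by effector over naive ratio and by twi over WT ratio in effector CD8+ T and B cells, the 5 with the largest range over classes, the X-linked members, paralog pairs, a set chosen for their roles, and the extremes of each pathway list; others were named after their values were seen, and some results that the rule covers are not reported here. Alternatives varied the mitochondrial limit, depth, denominator, member set, gates, fold, minimum and TMM scaling (edgeR 4.0.16, R 4.3.3). Start sites were from RefSeq (GRCm38.p6) and transcripts from GENCODE M21; 21 members had no entry in the start table used. Near-identical ends were found with BLAST.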

Additional observations from a re-analysis of the deposited data

Results flagged for a closer look

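The share of UMIs from ribosomal protein genes moved in opposite directions between genotypes in different cell classes, and these differences between classes were not tested. It was higher in twi in NK cells (ratio 1.25), neutrophils (1.31) and non-cycling B cells (1.07). It was lower in effector CD8+ T cells (0.956), CD4+ T cells (0.946), cycling B cells (0.872) and monocytes (0.974). Some of these directions turned with the processing: monocytes were at 1.14 as medians over barcodes and 1.16 without the deepest barcodes, and cycling B cells at 1.04 as medians and 1.05 without barcodes with monocyte markers. Non-cycling B cells without immature markers were at 0.956 in summed UMIs, while their medians over barcodes kept the order (22.6% in WT and 24.1% in twi). CD4+ T cells were lower in twi as a whole and without cycling barcodes (34.7% in WT and 31.8% in twi). Cycling ones were higher in twi (20.9 and 26.5%). So were both groups set by naive and effector markers, in summed UMIs. With more naive than effector UMIs the share was 33.3% in WT and 34.5% in twi (40 and 38 barcodes). In the other CD4+ T cells it was 24.8 and 27.0% (7 and 34 barcodes). As medians over barcodes the values were 36.13 and 36.10%, and 28.3 and 25.8%, so twi was not higher in either group. Each ratio rests on 1 library per genotype, and the class sizes range from 12 to 517 barcodes.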

How the results depend on the processing

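No paired analysis was possible because there is 1 library per genotype, and for the same reason no replicate could be left out. The all-barcode ratio of 1.37 was 1.33 with each barcode thinned to 1000 UMIs (1165 WT and 1187 twi barcodes), 1.41 without the 5% deepest barcodes, 1.499 as medians, 1.31 without mitochondrial, immunoglobulin, hemoglobin, S100a8 and S100a9 UMIs in the total, 1.367 with Fau, Gnb2l1 and other rows, the -ps rows among them, added, and 1.17 in barcodes with Y-linked transcripts and no Xist. Effector over naive CD8+ T cells in twi (0.851) was 0.748 thinned, 0.8003 as medians, 0.770 in the Y-linked barcodes and 0.871 without cycling effector cells. In WT it stayed between 0.819 and 0.935.

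Cycling over non-cycling B cells in WT (1.14) was below 1 thinned (0.756), without the deepest barcodes (0.739), as medians (0.924) and, in an alternative chosen after seeing the data, without barcodes with monocyte markers (0.952). It was 1.17 without the 5 most abundant members and 1.13 with the same rows added, and B cells without immature markers were too few for a value. The number of classes higher in twi (3 of 8) was 5 without the deepest barcodes and 5 as medians. Changing the cell mix alone, as arithmetic on the classes, gave 91.1% of the difference between the libraries. With alternatives chosen after seeing the data, it gave 91.4% with no mitochondrial limit, 93.3% thinned, 94.8% without the deepest barcodes and 90.9% in the Y-linked barcodes. Members past the fold between genotypes (58) were 8 at 1.5-fold and 6 in the Y-linked barcodes (8.83% and 13.2% of all genes higher). In effector over naive cells (13) they were 2, 42 thinned (21.6% of all genes lower), 37 in the Y-linked barcodes (22.7%) and 35 with CPM over other genes' UMIs (20.2%), a scaling that moved the median of all genes from 1.11 to 1.02 there and from 0.990 to 1.09 between genotypes.

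Directions also turned for monocytes between genotypes (0.974), at 1.01 thinned, 1.16 without the deepest, 1.14 as medians and 1.10 without cycling barcodes (chosen after seeing the data). Cycling B cells (0.872) were at 1.24 without the deepest, 1.04 as medians and 1.05 without monocyte markers (also chosen after seeing the data). Non-cycling B cells without immature markers were at 0.956 in summed UMIs, though their order did not turn as medians over barcodes. Rpl22 in effector over naive cells was 0.908 thinned, Rps27l 0.896 in the Y-linked barcodes and Rpl6l between genotypes 0.980 there. The causes were not tested.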
